A study of Mus musculus with 16 samples.

Results

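The genes described here are the ligands and receptors that steer growing axons: semaphorins with their plexin and neuropilin receptors, netrins with Dcc and the Unc5 receptors, Slits with the Robo receptors, ephrins with the Eph receptors, and the axonal adhesion gene L1cam. They were chosen by gene symbol alone, and of the 72 mouse genes that match these families 70 were measured, out of 19938 genes in all. Ephb2 and Ntng2 were not analysed here, Ntng2 because its probe set was shared with another gene. RNA was hybridised to 16 Affymetrix arrays, and its source was mouse midbrain dopaminergic neurons by the labels, the cells that supply dopamine to the forebrain. All cells had the genotype Pitx3GFP/+ on a mixed C57BL/6 x 129/Ola background, so that green fluorescent protein (GFP) reported use of Pitx3, which encodes a transcription factor needed by such neurons, and 1 Pitx3 copy carried the insertion in every group. The design text says that all cells were sorted for GFP, while the sample labels name the sort for primary cells only. The groups were 5 biological replicates differentiated from induced pluripotent stem cells (iPSCs) with recombinant human WNT1 and DKK3 (treated), 5 biological replicates of iPSC-derived cells differentiated without them (control), and primary ventral midbrain neurons of E14.5 and of E13.5 embryos with 3 technical arrays each. Because the labels call those arrays technical, each stage counted as 1 sample, and the primary group had 2. Whether the iPSC-derived replicates came from 1 line or several, and whether embryos were pooled, is not stated in the labels; the p-values here reflect the spread between these samples and nothing wider.

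Guidance cues are proteins that growth cones read as attraction or repulsion. Secreted cues such as netrins, Slits and class 3 semaphorins act at a distance, while ephrins and most other semaphorins are held on cell membranes and act on contact; each family has its own receptors, which act on the actin and microtubule skeleton of the growth cone. Axons of midbrain dopaminergic neurons are known to use netrin-1 with DCC, Slits with ROBO1 and ROBO2, semaphorins with neuropilins and plexins, and ephrins with Eph receptors on their way to the forebrain. Many of the same genes are also used outside neurons, for example in blood vessels, neural progenitors and mesenchyme.

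Levels are the deposited log2 values, the array medians lay between 5.85 and 6.02 and the lower quartiles between 4.32 and 4.70, and every value list below runs in the order of the replicate numbers. Each gene is read by its own probe set, so levels of different genes are not set against each other. Some differences rest on a side that lay below the array medians. Examples are the control mean of Dcc without array 5, at 5.34, and the primary mean of Ephb4, at 5.50. Such levels may be near background, and the size of those differences is then uncertain. The median SD of a guidance gene was 0.30 among treated and 0.25 among control replicates, and 0.20 among E14.5 and 0.23 among E13.5 technical arrays. The labelled cell type was checked against its markers. Th, the rate-limiting enzyme of dopamine synthesis, averaged 6.36 in treated and 6.33 in control cells, against 11.3 in E14.5 and 11.1 in E13.5 neurons. The mean of 9 dopaminergic genes was 5.75 to 7.87 on treated and 5.84 to 7.51 on control arrays, against 9.71 to 9.84 on E14.5 and 9.49 to 9.92 on E13.5 arrays, and all 9 genes were lower in both iPSC-derived groups. The iPSC-derived groups each held an array that stood apart: without the arrays numbered 5, the highest dopaminergic mean was 6.05 in treated and 6.04 in control cells, close to the array medians. The mean of 6 pan-neuronal genes showed the same array, at 8.68 on treated and 8.40 on control array 5 and at most 6.88 and 6.87 on the others, against 10.4 to 10.8 on E14.5 and 10.3 to 10.8 on E13.5 arrays. Cells of the iPSC-derived groups are therefore called iPSC-derived cells and not neurons below. Markers of other cells moved the other way: the mean of 7 mesenchyme and fibroblast genes was 8.85 to 9.94 on treated and 9.06 to 10.1 on control arrays, against 5.60 to 5.84 on E14.5 and 5.54 to 5.78 on E13.5 arrays, and all 7 were higher in both iPSC-derived groups. The mean of 6 astrocyte and radial glia genes was 9.13 to 10.1 and 8.96 to 9.97 in treated and control cells, against 6.37 to 6.82 and 6.00 to 6.41 in E14.5 and E13.5 cells, with 5 of 6 higher in each iPSC-derived group. The mean of 5 pluripotency genes was 5.31 on treated and 5.42 on control array 5 and 7.25 to 8.75 and 7.14 to 8.17 on the other treated and control arrays, against 5.13 to 5.72 on E14.5 and 5.70 to 5.74 on E13.5 arrays. Of these genes 0 of 5 passed with all arrays and 4 were higher in each iPSC-derived group without the arrays numbered 5. Of 6 endothelial genes 2 were higher and 1 lower, of 6 muscle genes 2 were higher, and of 4 microglial genes 1 was higher and 1 lower, in each iPSC-derived group. The endothelial mean was 6.16 to 6.78 on treated and 6.17 to 6.71 on control arrays, against 5.32 to 5.52 on E14.5 and 5.34 to 5.77 on E13.5 arrays. The muscle mean was 6.38 to 7.15 on treated and 6.26 to 6.45 on control arrays, against 5.71 to 5.95 on E14.5 and 5.69 to 6.02 on E13.5 arrays. The microglial mean was 5.32 to 6.11 on treated and 5.52 to 5.98 on control arrays, against 5.48 to 5.70 on E14.5 and 5.20 to 5.74 on E13.5 arrays. The part of these markers in the results below was not tested, and in sorted bulk samples fewer cells of a type and less RNA per cell cannot be told apart.

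Both kinds of iPSC-derived cells had lower levels than primary neurons for 17 of 33 guidance receptor genes and 7 of 13 membrane-bound semaphorin genes. Fewer guidance genes were higher, 15.7% in treated and 17.1% in control cells, no more than the shares of all genes given next. Among them were 4 of 7 class 3 semaphorin genes. The calls of Sema3a, Sema3c and Sema3e among these depended on the primary samples used, as given below. Of the 70 guidance genes, 32 were lower in control cells than in primary neurons, against 22.5% of all genes, and 12 were higher, against 19.3% of all genes (limma, Benjamini-Hochberg adjusted p below 0.05). The other 26 did not pass. The class counts below stand against the same shares of all genes, and most classes are too small to be read against them. In treated cells 31 were lower, against 21.3% of all genes, and 11 were higher, against 19.9%. These comparisons share the primary samples, and their values are given side by side. The median log2 difference of the guidance genes was -0.36 in treated and -0.41 in control cells, beside -0.09 and -0.11 over all genes. Without the arrays numbered 5, 34 guidance genes were lower in control cells, beside 23.6% of all genes, and 14 were higher, beside 22.5%. In treated cells 33 were lower, beside 22.8% of all genes, and 11 higher, beside 22.9%. Receptors accounted for 17 of the 32 lower and 5 of the 12 higher genes in control cells (33 measured), and ligands for 14 and 7 (36 measured). Of the calls in control cells, 28 lower ones were at least 2-fold, against 7.91% of all genes, and 5 higher ones, against 10.6%. Subtracting the array median moved the median of all genes to -0.30 and the calls over all genes to 3046 higher and 8833 lower, against 3855 and 4491 as deposited, and the guidance genes then counted 11 higher and 42 lower in control cells. In treated cells this scaling moved the median of all genes to -0.30 as well, the calls over all genes to 3059 higher and 8787 lower, and those of guidance genes to 9 higher and 41 lower. With array medians subtracted or a further quantile normalization, Unc5b and Sema3c in control cells and Efnb1, Unc5c and Sema3c in treated cells no longer passed under at least 1 of these scalings, and no called guidance gene changed sign.

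**Figure D1:**
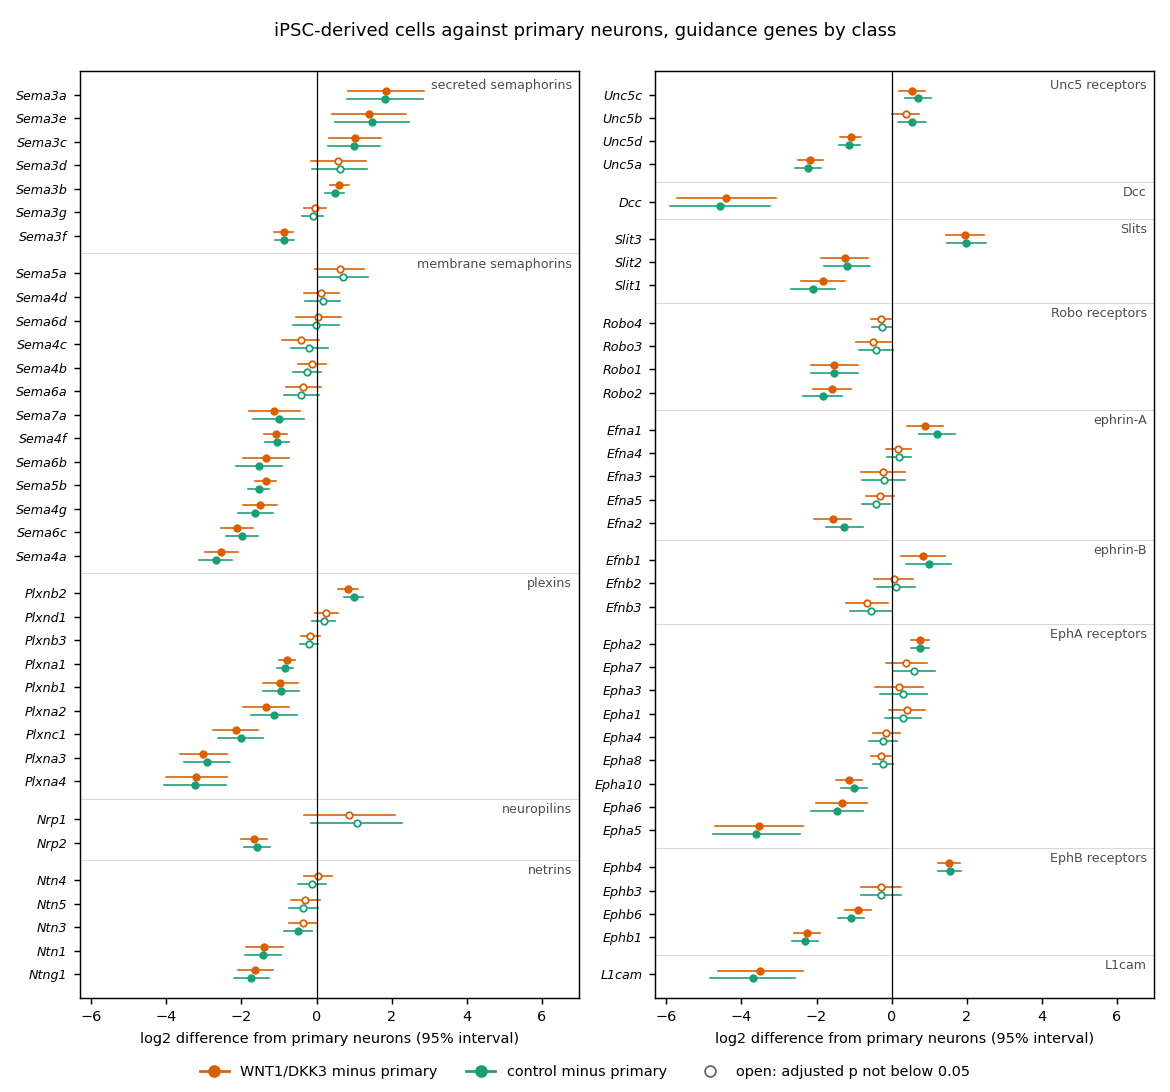
Log2 difference of the 70 guidance genes from primary neurons by class, with 95% intervals, for treated (upper mark, orange) and control cells (lower mark, green); filled marks had an adjusted p below 0.05. The lowest values are those of Dcc (-4.41 treated, -4.57 control), followed by Epha5 in treated (-3.53) and L1cam in control cells (-3.70). Slit3 is the highest (1.95 treated, 1.99 control).

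Promoters of guidance genes toward both ends of this range are shown so that their base composition can be seen. That of Dcc, the lowest, is not shown. Each promoter shown is the 250 bases before a start of the gene in RefSeq on GRCm38.p6, read in the direction of the gene. GC boxes (GGGCGG on either strand) are in capitals. For L1cam 2 starts are listed, and the promoter shown is that of a single start. L1cam lies at chrX:73880791-73881040 on the minus strand and Epha5 at chr5:84417383-84417632 on the minus strand, and both were lower in iPSC-derived cells. Slit3 lies at chr11:35121206-35121455 on the plus strand and Sema3a at chr5:13396534-13396783 on the plus strand, and both were higher.
L1cam: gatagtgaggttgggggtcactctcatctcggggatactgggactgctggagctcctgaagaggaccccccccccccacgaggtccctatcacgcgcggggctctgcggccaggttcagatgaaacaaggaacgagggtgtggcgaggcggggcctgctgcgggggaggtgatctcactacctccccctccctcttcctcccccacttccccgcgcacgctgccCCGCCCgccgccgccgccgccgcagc
Epha5: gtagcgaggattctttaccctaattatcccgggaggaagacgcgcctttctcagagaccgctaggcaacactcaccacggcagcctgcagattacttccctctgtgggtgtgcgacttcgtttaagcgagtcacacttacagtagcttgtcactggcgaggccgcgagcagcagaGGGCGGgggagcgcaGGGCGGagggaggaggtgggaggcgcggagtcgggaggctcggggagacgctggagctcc
Slit3: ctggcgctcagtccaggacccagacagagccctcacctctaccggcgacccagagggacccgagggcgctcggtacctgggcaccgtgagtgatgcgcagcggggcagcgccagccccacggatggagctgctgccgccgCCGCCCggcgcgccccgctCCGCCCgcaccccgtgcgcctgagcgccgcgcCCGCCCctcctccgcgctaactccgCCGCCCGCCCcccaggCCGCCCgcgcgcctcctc
Sema3a: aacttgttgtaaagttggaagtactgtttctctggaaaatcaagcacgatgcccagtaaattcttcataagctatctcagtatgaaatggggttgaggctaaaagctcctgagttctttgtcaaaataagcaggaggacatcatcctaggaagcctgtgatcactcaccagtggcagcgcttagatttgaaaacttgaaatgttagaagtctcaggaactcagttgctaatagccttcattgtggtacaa
The G and C content was 69.6% for L1cam, 62.4% for Epha5, 78.8% for Slit3 and 40.8% for Sema3a, beside a median of 52.0% over all promoters in the table. GC boxes numbered 1, 2, 6 and 0 in the same order, where 2 of those of Slit3 overlap each other. Of the 60 guidance genes with a promoter in the table, 45 held a GC box (75.0%), against 46.0% of 15614 promoters of array genes and 32.9% of 27025 promoters in all. It was found in 20 of 25 promoters of genes lower in control cells and in 8 of 11 of genes higher there. The letters TAATCC, which paired-like homeodomain proteins of the PITX kind can bind, were in 2 of the 60 promoters (3.33%, against 5.92% of array genes), and AAAGGTCA, which NR4A proteins can bind as monomers, was in 0 (against 1.11%); no match says only that these letters are not in this window.

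Netrins are secreted cues that attract axons through DCC and repel them through UNC5 receptors. Dcc, the attractive netrin receptor and the gene with the largest difference among guidance genes, had log2 levels of 5.78, 5.07, 5.21, 5.50 and 7.55 on treated arrays, 4.89, 5.51, 5.43, 5.53 and 6.91 on control arrays, 10.28, 10.29 and 10.02 on E14.5 arrays and 10.43, 10.29 and 10.05 on E13.5 arrays. The primary arrays lay above every iPSC-derived array, and array 5 was the highest in both iPSC-derived groups. Dcc was 23.8-fold lower in control cells, with a log2 difference of -4.57 ± 0.61 (SE, adjusted p = 7.43e-05), and treated cells differed from primary neurons by -4.41 ± 0.61 (adjusted p = 0.000102). Without the arrays numbered 5 the differences were -4.84 in treated and -4.89 in control cells. Ntn1, which encodes the secreted cue netrin-1, had levels of 7.88, 7.81, 7.93, 7.61 and 8.46 on treated arrays, 7.62, 7.99, 7.88, 7.64 and 8.36 on control arrays, 9.49, 9.40 and 9.16 on E14.5 arrays and 9.52, 9.53 and 8.87 on E13.5 arrays. These groups did not overlap either, and Ntn1 differed from primary neurons by -1.39 in treated cells and by -1.43 ± 0.23 (SE, adjusted p = 0.000281) in control cells. Ntng1, which encodes netrin-G1, a membrane-anchored relative that does not bind DCC, was at 6.32, 5.69, 5.96, 5.97 and 6.48 on treated arrays, 6.20, 5.74, 5.99, 5.99 and 6.00 on control arrays, 7.97, 8.73 and 7.37 on E14.5 arrays and 7.39, 7.27 and 7.60 on E13.5 arrays. It was lower in both iPSC-derived groups, at -1.64 in treated and -1.74 ± 0.21 (SE, adjusted p = 4.05e-05) in control cells. Over all alternatives, the mean of its 2 probe sets among them, its control difference ran from -2.64 to -1.43. Of the other netrins, Ntn3 was at -0.37 in treated cells (adjusted p = 0.0953), where it did not pass, and was lower at -0.50 in control cells (adjusted p = 0.0317). The control call was lost without control replicate 1 (limma, adjusted p = 0.057) or 2 (0.0589), and with only control and primary samples in the fit (0.0523). It was also lost against the E14.5 sample alone, where the difference was -0.32. Ntn4 and Ntn5 did not pass, at -0.12 and -0.36 in control cells. Without the arrays numbered 5, Ntn3 was lower in treated cells too, at -0.44 (adjusted p = 0.0304), and Ntn5 was lower in control cells, at -0.44 (adjusted p = 0.0495).

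The 4 Unc5 receptor genes, which encode netrin receptors that mediate repulsion, split evenly in control cells. Unc5a had levels of 5.43, 5.41, 5.46, 5.50 and 6.01 on treated arrays, 5.47, 5.63, 5.34, 5.57 and 5.48 on control arrays, 7.88, 7.31 and 7.76 on E14.5 arrays and 7.86, 7.99 and 7.56 on E13.5 arrays. All primary arrays lay above all iPSC-derived arrays, with treated array 5 the highest of its group, and Unc5a was 4.68-fold lower in control cells, at -2.23 ± 0.16 (SE, adjusted p = 4.44e-07), and lower at -2.16 in treated cells. Unc5d was at 5.57, 5.69, 5.67, 5.67 and 5.86 on treated arrays, 5.76, 5.58, 5.80, 5.58 and 5.58 on control arrays, 6.40, 6.82 and 6.55 on E14.5 arrays and 7.61, 6.42 and 6.92 on E13.5 arrays. It was also lower without overlap, at -1.09 in treated and -1.13 ± 0.13 (SE, adjusted p = 1.85e-05) in control cells. Unc5c lay on the other side, with 6.79, 6.81, 6.91, 6.62 and 6.84 on treated arrays, 6.54, 7.10, 7.04, 6.96 and 7.16 on control arrays, 6.17, 5.94 and 6.18 on E14.5 arrays and 6.30, 6.68 and 6.24 on E13.5 arrays. One E13.5 array reached into the iPSC-derived range, and the differences were 0.54 ± 0.16 (adjusted p = 0.0164) in treated and 0.71 ± 0.16 (SE, adjusted p = 0.00348) in control cells. Unc5b had 6.03, 6.04, 6.48, 6.57 and 6.20 on treated arrays, 6.46, 6.21, 6.56, 6.56 and 6.40 on control arrays, 5.64, 5.45 and 6.04 on E14.5 arrays and 5.94, 6.24 and 6.05 on E13.5 arrays. The groups overlapped, and Unc5b was higher in control cells, at 0.55 ± 0.17 (SE, adjusted p = 0.0223), while treated cells differed by 0.37 with an adjusted p of 0.0999. Against the E13.5 sample alone Unc5c in treated cells did not pass (adjusted p = 0.188), and neither Unc5c (adjusted p = 0.0678) nor Unc5b (0.238) passed in control cells.

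L1cam encodes an adhesion protein of growing axons that also joins neuropilin-1 as a co-receptor. Its levels were 6.07, 5.90, 5.40, 5.83 and 7.60 on treated arrays, 5.94, 5.68, 5.60, 5.47 and 7.09 on control arrays, 9.97, 9.50 and 9.72 on E14.5 arrays and 10.12, 9.95 and 8.67 on E13.5 arrays. Primary arrays lay above all iPSC-derived arrays, the lowest being E13.5 array 3, and array 5 was again the highest of both iPSC-derived groups. L1cam was 13-fold lower in control cells, at -3.70 ± 0.52 (SE, adjusted p = 0.000116), and lower at -3.50 in treated cells. The differences without the arrays numbered 5 were -3.85 in treated and -3.98 in control cells.

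**Figure D2:**
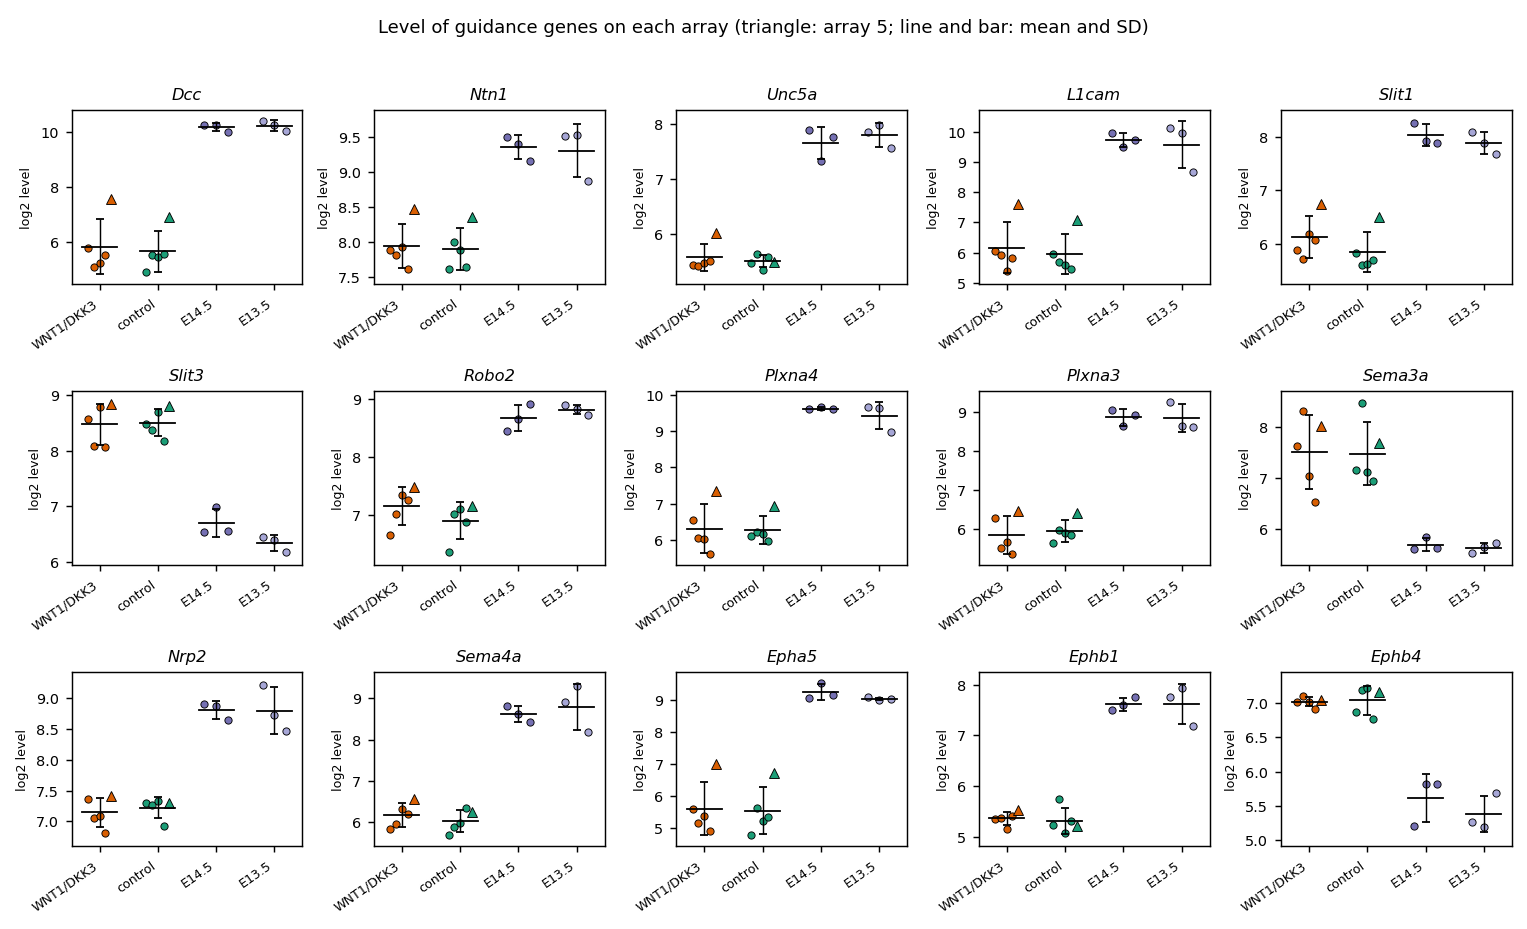
Log2 level of 15 guidance genes on each array in treated, control, E14.5 and E13.5 cells; points are arrays, triangles the iPSC-derived arrays numbered 5, lines the means and bars the SD. Dcc lies at 10.02 or above on all primary arrays and at 7.55 or below on all iPSC-derived arrays, while Slit3, Sema3a and Ephb4 lie higher on the iPSC-derived arrays.

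Slits are large secreted repellents that bind Robo receptors. Slit1 had levels of 5.89, 5.72, 6.19, 6.07 and 6.75 on treated arrays, 5.84, 5.61, 5.64, 5.71 and 6.50 on control arrays, 8.26, 7.93 and 7.89 on E14.5 arrays and 8.09, 7.89 and 7.67 on E13.5 arrays. Array 5 was the highest of each iPSC-derived group and still below every primary array. Slit1 was 4.28-fold lower in control cells, at -2.10 ± 0.27 (SE, adjusted p = 6.19e-05), and lower at -1.83 in treated cells. Slit2 was at 8.55, 8.06, 8.09, 7.64 and 8.16 on treated arrays, 8.17, 8.64, 8.30, 7.41 and 8.33 on control arrays, 9.58, 9.18 and 9.40 on E14.5 arrays and 9.38, 9.30 and 9.27 on E13.5 arrays. It too was lower without overlap, at -1.25 in treated and -1.18 ± 0.28 (SE, adjusted p = 0.0052) in control cells. Slit3 went the other way, with 8.57, 8.09, 8.79, 8.07 and 8.84 on treated arrays, 8.47, 8.37, 8.70, 8.18 and 8.80 on control arrays, 6.54, 7.00 and 6.56 on E14.5 arrays and 6.44, 6.40 and 6.17 on E13.5 arrays. Every iPSC-derived array lay above every primary array, and Slit3 was 3.97-fold higher in control cells, at 1.99 ± 0.24 (SE, adjusted p = 3.1e-05), and higher by 1.95 in treated cells. It had the largest increase of any guidance gene. The difference without the arrays numbered 5 was 1.86 in treated and 1.91 in control cells.

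The Slit receptors Robo2 and Robo1 were both lower in iPSC-derived cells. Robo2 had 6.64, 7.01, 7.34, 7.26 and 7.48 on treated arrays, 6.35, 7.00, 7.10, 6.88 and 7.16 on control arrays, 8.45, 8.64 and 8.90 on E14.5 arrays and 8.88, 8.82 and 8.72 on E13.5 arrays, with no overlap, and differed by -1.59 in treated and -1.84 ± 0.24 (SE, adjusted p = 5.77e-05) in control cells. Robo1 was at 9.05, 8.95, 9.02, 8.70 and 9.77 on treated arrays, 8.60, 9.13, 9.19, 8.85 and 9.68 on control arrays, 10.49, 10.50 and 10.57 on E14.5 arrays and 10.88, 10.83 and 10.45 on E13.5 arrays. Array 5 stood highest in both iPSC-derived groups without reaching the primary arrays, and Robo1 differed by -1.52 in treated and -1.53 ± 0.29 (SE, adjusted p = 0.00107) in control cells. Robo3, which encodes a divergent Robo protein known from commissural axons, did not pass, at -0.49 in treated and -0.41 in control cells. Its control difference depended on the stage, at -0.85 against the E13.5 sample alone and 0.03 against the E14.5 sample alone. Robo4, a Robo gene of blood vessel cells, did not pass either, at -0.27 and -0.26. With array medians subtracted, both Robo3 and Robo4 passed as lower in control cells, and Robo4 also passed without control replicate 4. Of 6 endothelial genes, 2 were higher and 1 lower in each iPSC-derived group.

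Class 3 semaphorins are secreted cues that bind neuropilins, which signal together with A-type plexins. Of 7 measured, 4 were higher and 1 lower in control cells, and the counts were the same in treated cells. Sema3a, the founding repellent of the class, had levels of 7.64, 8.32, 7.05, 6.54 and 8.03 on treated arrays, 7.16, 8.47, 7.13, 6.95 and 7.70 on control arrays, 5.61, 5.84 and 5.63 on E14.5 arrays and 5.54, 5.65 and 5.73 on E13.5 arrays. All iPSC-derived arrays lay above all primary arrays, with a wide spread among them, and Sema3a differed by 1.85 ± 0.47 (adjusted p = 0.00719) in treated and 1.82 ± 0.47 (SE, adjusted p = 0.00796) in control cells. Sema3e, which encodes a ligand of plexin-D1, was at 6.63, 6.43, 7.62, 8.01 and 6.42 on treated arrays, 7.49, 6.71, 7.05, 7.83 and 6.46 on control arrays, 5.30, 5.49 and 5.79 on E14.5 arrays and 5.51, 5.77 and 5.94 on E13.5 arrays. It was higher without overlap, by 1.39 in treated and 1.47 ± 0.45 (SE, adjusted p = 0.0212) in control cells. Sema3c was higher by 1.02 and 0.99, and Sema3b by 0.60 and 0.48, in treated and control cells. Sema3f, a repellent that acts through neuropilin-2, was the lower one, with 7.23, 7.08, 7.32, 7.21 and 7.00 on treated arrays, 7.29, 7.18, 7.21, 7.17 and 7.03 on control arrays, 8.10, 7.69 and 7.97 on E14.5 arrays and 8.11, 8.14 and 8.22 on E13.5 arrays. The groups did not overlap, and the difference was -0.87 in treated and -0.86 ± 0.12 (SE, adjusted p = 8.27e-05) in control cells. Sema3d and Sema3g did not pass. Against either stage alone, Sema3a, Sema3e and Sema3c lost their calls in both iPSC-derived groups. Against the E14.5 sample alone their adjusted p-values were 0.0566, 0.102 and 0.18 in treated and 0.0609, 0.0851 and 0.192 in control cells. Against the E13.5 sample alone they were 0.0502, 0.153 and 0.0594 in treated and 0.0534, 0.128 and 0.064 in control cells, where Sema3b did not pass either (0.105). Sema3e in treated cells also lost its call without treated replicate 3 (adjusted p = 0.0548).

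Of the 2 neuropilin and 4 A-type plexin genes, which read class 3 semaphorins, 5 were lower in each iPSC-derived group and Nrp1 did not pass. Nrp2, which encodes neuropilin-2, had 7.36, 7.06, 7.08, 6.82 and 7.41 on treated arrays, 7.29, 7.27, 7.33, 6.93 and 7.29 on control arrays, 8.90, 8.88 and 8.64 on E14.5 arrays and 9.21, 8.72 and 8.47 on E13.5 arrays. Primary arrays lay above all others, and Nrp2 was 2.99-fold lower in control cells, at -1.58 ± 0.16 (SE, adjusted p = 8.69e-06), and lower at -1.66 in treated cells. Nrp1, which encodes neuropilin-1, also used in blood vessels, was at 8.33, 8.23, 7.87, 7.31 and 9.36 on treated arrays, 8.10, 8.67, 8.13, 7.43 and 9.73 on control arrays, 7.22, 7.28 and 7.29 on E14.5 arrays and 7.58, 7.47 and 7.23 on E13.5 arrays. Array 5 was the highest of both iPSC-derived groups here too, the groups overlapped, and the differences of 0.87 in treated (adjusted p = 0.221) and 1.07 in control cells (adjusted p = 0.136) did not pass. Plxna4, a plexin of developing axons, had 6.54, 6.04, 6.03, 5.61 and 7.34 on treated arrays, 6.10, 6.22, 6.15, 5.97 and 6.92 on control arrays, 9.59, 9.65 and 9.60 on E14.5 arrays and 9.65, 9.62 and 8.98 on E13.5 arrays. It was 9.48-fold lower in control cells, at -3.24 ± 0.38 (SE, adjusted p = 2.52e-05), and lower at -3.20 in treated cells. Plxna3 was at 6.26, 5.50, 5.66, 5.35 and 6.47 on treated arrays, 5.63, 5.96, 5.88, 5.83 and 6.42 on control arrays, 9.06, 8.64 and 8.94 on E14.5 arrays and 9.26, 8.65 and 8.63 on E13.5 arrays. It differed by -3.01 in treated and -2.92 ± 0.28 (SE, adjusted p = 6.16e-06) in control cells, and for neither plexin did the iPSC-derived arrays reach the primary ones. The other A-type plexins were lower by less, Plxna2 at -1.35 in treated and -1.13 in control cells, with overlap, and Plxna1 at -0.79 and -0.83. Plxna2 in control cells lost its call against the E13.5 sample alone (adjusted p = 0.102).

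Semaphorins of classes 4 to 7 are bound to the membrane, and 7 of 13 were lower and 0 higher in each iPSC-derived group. Sema4a, a membrane semaphorin also known from immune cells and the retina, had levels of 5.84, 5.96, 6.33, 6.20 and 6.55 on treated arrays, 5.70, 5.88, 5.97, 6.34 and 6.24 on control arrays, 8.83, 8.63 and 8.43 on E14.5 arrays and 8.92, 9.29 and 8.19 on E13.5 arrays. The groups did not overlap, and Sema4a was 6.45-fold lower in control cells, at -2.69 ± 0.20 (SE, adjusted p = 8.41e-07), and lower at -2.54 in treated cells. Sema6c, of a class that binds A-type plexins, was at 5.62, 6.08, 5.72, 5.54 and 6.17 on treated arrays, 6.07, 6.23, 5.86, 5.57 and 5.97 on control arrays, 7.66, 8.00 and 8.10 on E14.5 arrays and 8.21, 7.87 and 7.78 on E13.5 arrays. It differed by -2.11 in treated and -1.99 ± 0.20 (SE, adjusted p = 6.54e-06) in control cells, again without overlap. The other 5 lower ones were Sema4g, Sema5b, Sema6b, Sema4f and Sema7a, with differences of -1.63, -1.54, -1.53, -1.05 and -1.01 in control cells. Sema7a, which encodes a lipid-anchored ligand of plexin-C1, lost its call against the E13.5 sample alone (adjusted p = 0.118 in treated and 0.162 in control cells) and, in control cells, against the E14.5 sample alone (0.0553). Sema4b, Sema4c, Sema4d, Sema5a, Sema6a and Sema6d did not pass, with differences between -0.41 (Sema6a) and 0.70 (Sema5a) in control cells. Without the arrays numbered 5, Sema5a was higher in control cells, at 0.61 (adjusted p = 0.0137).

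Of the plexins outside the A class, Plxnc1, the receptor gene for Sema7a, was lower at -2.16 in treated and -2.02 in control cells (adjusted p = 7.94e-05 in control cells). Plxnb1, a receptor gene for Sema4d, was lower at -0.96 in treated and -0.95 in control cells. Plxnb2, a receptor of class 4 semaphorins in neural progenitors and epithelia, was the only plexin gene that was higher, with levels of 9.60, 9.32, 9.38, 9.32 and 9.53 on treated arrays, 9.41, 9.77, 9.48, 9.58 and 9.66 on control arrays, 8.40, 8.45 and 8.82 on E14.5 arrays and 8.58, 8.56 and 8.75 on E13.5 arrays. All iPSC-derived arrays lay above all primary arrays, and the difference was 0.84 in treated and 0.99 ± 0.12 (SE, adjusted p = 3.93e-05) in control cells. Plxnb3 and Plxnd1 did not pass, at -0.20 and 0.20 in control cells.

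Eph receptors are tyrosine kinases that bind ephrins on neighbouring cells, the A-type mainly lipid-anchored ephrin-A and the B-type mainly transmembrane ephrin-B proteins. Of 9 EphA genes, 3 were lower and 1 higher in each iPSC-derived group. Epha5 had levels of 5.60, 5.16, 5.38, 4.92 and 7.01 on treated arrays, 4.78, 5.65, 5.23, 5.36 and 6.72 on control arrays, 9.06, 9.54 and 9.17 on E14.5 arrays and 9.08, 9.01 and 9.03 on E13.5 arrays. Array 5 was the highest of both iPSC-derived groups, and no iPSC-derived array reached the primary ones. Epha5 was 12.2-fold lower in control cells, at -3.60 ± 0.54 (SE, adjusted p = 0.000179), and lower at -3.53 in treated cells. The differences without the arrays numbered 5 were -3.88 and -3.90. Epha6 was at 4.30, 4.18, 4.17, 4.28 and 5.08 on treated arrays, 4.38, 3.87, 4.17, 4.26 and 4.70 on control arrays, 6.12, 6.08 and 6.73 on E14.5 arrays and 5.17, 5.29 and 5.02 on E13.5 arrays. It lay below the lower quartile of all probe sets on 4 of 5 treated and 4 of 5 control arrays, so its level there is near the floor and the size of its difference is uncertain. Treated array 5 lay within the E13.5 range, and Epha6 differed by -1.33 in treated and -1.46 ± 0.32 (SE, adjusted p = 0.00278) in control cells, a call that was lost against the E13.5 sample alone (adjusted p = 0.124 in treated and 0.0763 in control cells). Epha10, which encodes a kinase-dead Eph receptor, was lower at -1.13 in treated and -1.01 in control cells. Epha2, an Eph receptor gene of epithelial cells, was the higher one, with 6.60, 6.68, 6.63, 6.66 and 6.52 on treated arrays, 6.61, 6.79, 6.43, 6.64 and 6.53 on control arrays, 5.78, 5.94 and 5.50 on E14.5 arrays and 5.86, 6.13 and 5.91 on E13.5 arrays. The groups did not overlap, and the difference was 0.77 ± 0.11 (adjusted p = 0.000159) in treated and 0.75 ± 0.11 (SE, adjusted p = 0.000188) in control cells. Epha1, Epha3, Epha4, Epha7 and Epha8 did not pass, with differences between -0.23 (Epha4 and Epha8) and 0.59 (Epha7) in control cells. Epha7 was higher in control cells without the arrays numbered 5, at 0.52 (adjusted p = 0.0421).

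Of the 4 EphB genes measured, Ephb1 and Ephb6 were lower and Ephb4 was higher in both iPSC-derived groups. Ephb1 had 5.35, 5.37, 5.16, 5.40 and 5.53 on treated arrays, 5.22, 5.75, 5.08, 5.30 and 5.22 on control arrays, 7.50, 7.59 and 7.75 on E14.5 arrays and 7.75, 7.92 and 7.19 on E13.5 arrays. All primary arrays lay above all iPSC-derived arrays. Array 5 was the highest treated array, at 5.53, and lay within the range of the others in control cells. Ephb1 was 4.93-fold lower in control cells, at -2.30 ± 0.16 (SE, adjusted p = 3.95e-07), and lower at -2.26 in treated cells. Over all alternatives, the mean of its 2 probe sets among them, its control difference ran from -2.49 to -1.65. Ephb6, which like Epha10 encodes a kinase-dead receptor, was at 6.54, 6.31, 6.54, 6.35 and 6.42 on treated arrays, 6.43, 6.02, 6.50, 6.18 and 6.04 on control arrays, 7.11, 7.29 and 6.89 on E14.5 arrays and 7.25, 7.77 and 7.63 on E13.5 arrays. It was lower without overlap, at -0.89 in treated and -1.09 ± 0.16 (SE, adjusted p = 0.000164) in control cells. Ephb4, known from veins, where its ligand is ephrin-B2, was at 7.02, 7.10, 7.02, 6.92 and 7.05 on treated arrays, 6.87, 7.19, 7.22, 6.76 and 7.16 on control arrays, 5.20, 5.82 and 5.81 on E14.5 arrays and 5.26, 5.19 and 5.68 on E13.5 arrays. It was 2.92-fold higher in control cells, at 1.54 ± 0.14 (SE, adjusted p = 2.85e-06), and higher by 1.52 in treated cells, without overlap. Ephb3 did not pass, at -0.28 in both iPSC-derived groups.

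Of the ephrin genes, 1 of 5 ephrin-A genes was lower and 1 higher, and 1 of 3 ephrin-B genes was higher, in each iPSC-derived group. The ephrin-A share of 20.0% in each direction was near that of all genes, so these counts are no result about the class. Efna2 had levels of 6.54, 6.03, 5.91, 5.96 and 6.16 on treated arrays, 6.74, 6.43, 6.18, 6.46 and 6.33 on control arrays, 7.20, 7.22 and 7.38 on E14.5 arrays and 8.52, 8.03 and 7.78 on E13.5 arrays. All primary arrays lay above all iPSC-derived arrays, and the difference was -1.57 in treated and -1.26 ± 0.23 (SE, adjusted p = 0.000751) in control cells. Efna1, an ephrin gene of blood vessels and epithelia, was at 7.25, 6.91, 7.20, 7.16 and 6.55 on treated arrays, 7.19, 7.18, 7.42, 7.73 and 7.21 on control arrays, 5.77, 6.38 and 5.32 on E14.5 arrays and 6.76, 6.28 and 6.27 on E13.5 arrays. Control arrays lay above all primary arrays while treated array 5 did not, and Efna1 was higher by 0.88 ± 0.22 (adjusted p = 0.00703) in treated and by 1.22 ± 0.22 (SE, adjusted p = 0.00083) in control cells. The call of Efna1 in treated cells was lost against the E13.5 sample alone (adjusted p = 0.137). Efnb1, an X-linked ephrin gene known from the neural crest and skeleton, had 7.82, 7.75, 7.55, 7.46 and 8.41 on treated arrays, 7.54, 8.10, 7.85, 7.72 and 8.51 on control arrays, 6.78, 6.71 and 6.87 on E14.5 arrays and 7.29, 6.71 and 7.39 on E13.5 arrays. Its iPSC-derived arrays lay above its primary arrays, and it was higher by 0.84 ± 0.27 (adjusted p = 0.0265) in treated and 0.99 ± 0.27 (SE, adjusted p = 0.0118) in control cells, with the treated call lost against either stage alone (adjusted p = 0.0617 against E14.5 and 0.2 against E13.5) and the control call lost against E13.5 alone (0.122). Efna3, Efna4, Efna5, Efnb2 and Efnb3 did not pass, with control differences between -0.56 (Efnb3) and 0.20 (Efna4). Without the arrays numbered 5, Efna5 was lower at -0.39 in treated and -0.49 in control cells (adjusted p = 0.0324 and 0.00999).

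The arrays numbered 5, on which neuronal markers were highest, were also the highest of their group for many of the guidance genes that were lower in control cells. Array 5 was the highest of its group for 23 of these 32 genes among treated arrays (71.9%) and for 15 among control arrays (46.9%), against 47.0% and 36.5% of all genes lower in control cells. For the 12 guidance genes higher in control cells, array 5 was the lowest of its group for 4 in treated (33.3%) and 3 in control cells, against 35.9% and 39.6% of all genes higher in control cells. Dcc shows the size of this: array 5 was at 7.55 in treated cells, where the other arrays reached at most 5.78, and at 6.91 in control cells, where the others reached at most 5.53. L1cam was at 7.60 and 7.09 on these arrays, against at most 6.07 and 5.94 on the others. For the other 17 genes in control cells, Ephb1, Sema5b, Plxna1 and Sema3f among them, array 5 lay within or below the range of the other arrays. Means of other markers were also at an extreme on array 5, some by little. The muscle mean was highest there, at 7.15 in treated cells (at most 6.47 on the others) and 6.45 in control cells (at most 6.38). So was the mesenchyme and fibroblast mean, at 9.94 in treated (at most 9.65) and 10.1 in control cells (at most 9.94). The astrocyte and radial glia mean was lowest there, at 9.13 in treated (at least 9.52 on the others) and 8.96 in control cells (at least 9.08). Also lowest were the endothelial mean, at 6.16 in treated and 6.17 in control cells, and the pluripotency mean given above. The part of these markers was not tested.

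**Figure D3:**
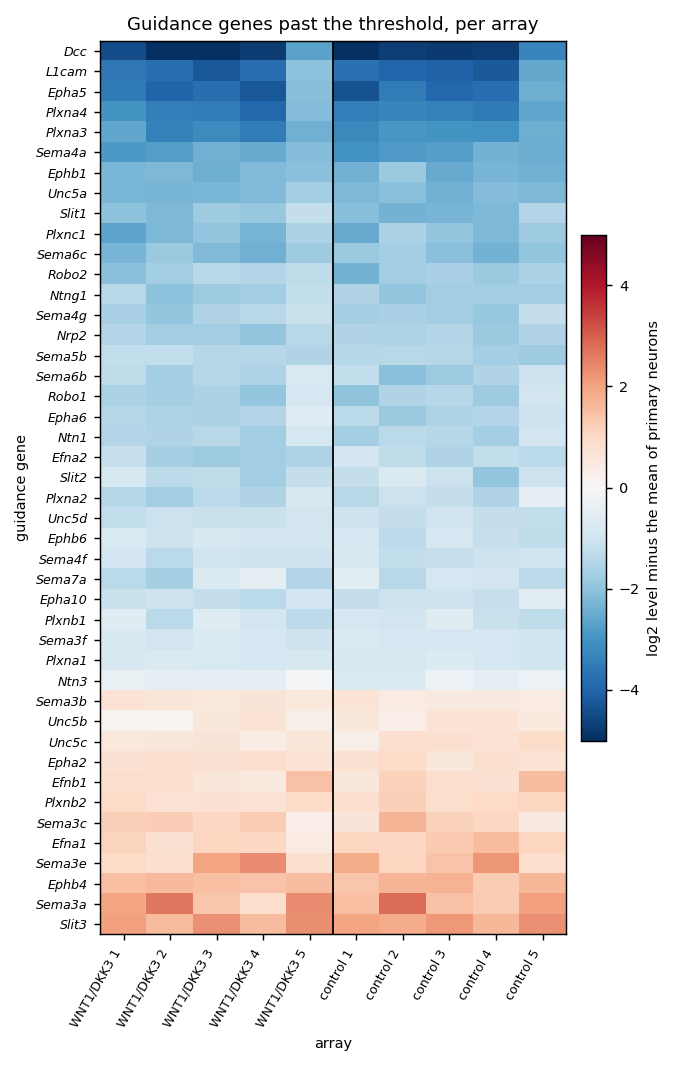
Log2 level of the 44 guidance genes past the threshold in control cells, as the difference of each iPSC-derived array from the mean of primary neurons, with treated arrays left of control arrays. Rows run from Dcc, the lowest, to Slit3, the highest, and array 5 is paler than its group for Dcc, L1cam and Epha5.

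The treatment comparison asked whether WNT1 and DKK3, a secreted Wnt ligand and a secreted protein of the Dickkopf family, changed guidance genes in iPSC-derived cells. Of the 70 guidance genes 0 passed in either direction (limma, adjusted p), beside 0% of all genes higher and 0% lower, and every difference was within 0.34 on the log2 scale. No adjusted p over the 19938 genes was under 0.753. Before adjustment 300 genes (1.5%) were below 0.05, and 1 of them was a guidance gene. In mean, 36 guidance genes were higher and 34 lower in treated cells. Efna2 had the smallest unadjusted p, with 6.54, 6.03, 5.91, 5.96 and 6.16 on treated arrays, against 6.74, 6.43, 6.18, 6.46 and 6.33 on control arrays. The groups overlapped, and the difference was -0.31 with a 95% interval from -0.61 to -0.01 (limma, unadjusted p = 0.0468). Efna1 followed with 7.25, 6.91, 7.20, 7.16 and 6.55 on treated arrays and 7.19, 7.18, 7.42, 7.73 and 7.21 on control arrays. Array 5 was the lowest treated array for this gene, and the difference was -0.34 (-0.68 to 0.01). The next were Sema5b at 0.18 (-0.04 to 0.41), Ephb6 at 0.20 (-0.05 to 0.44) and Plxnb2 at -0.15 (-0.36 to 0.06). All adjusted p-values of guidance genes rounded to 1.0.

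The 95% interval lay within a 2-fold change either way for 66 of the 70 guidance genes (94.3%), against 97.1% of all genes, and the median SE was 0.17 for guidance genes and 0.12 for all genes. The exceptions were Dcc (0.17, interval -0.90 to 1.23), L1cam (0.20, -0.71 to 1.11), Nrp1 (-0.20, -1.16 to 0.77) and Epha5 (0.07, -0.86 to 1.00), and array 5 was the highest of both iPSC-derived groups for each of them. Without the arrays numbered 5 the differences were 0.05 for Dcc (-0.37 to 0.47), 0.13 for L1cam (-0.22 to 0.48), -0.15 for Nrp1 (-0.78 to 0.48) and 0.01 for Epha5 (-0.43 to 0.46). A missed threshold does not show that treated and control cells were alike.

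**Figure D4:**
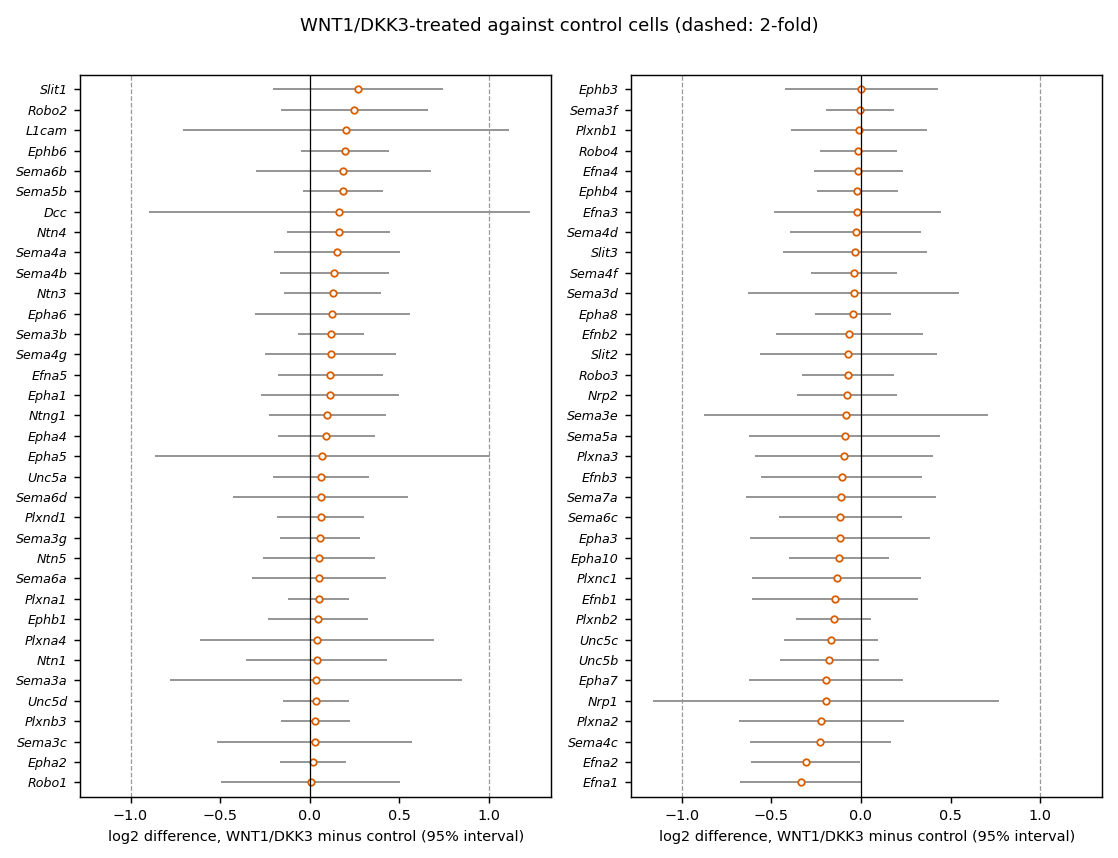
Log2 difference of treated minus control cells for the 70 guidance genes with 95% intervals, ordered by size; dashed lines mark a 2-fold change. The values run from -0.34 for Efna1 to 0.27 for Slit1, none passed, and the widest intervals are those of Dcc, L1cam, Nrp1 and Epha5.

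Between E14.5 and E13.5 neurons, 1 sample each, few guidance genes differed. With 3 technical arrays per stage there is no test, and a gene counted as different where its stage means lay 1 log2 unit or more apart and its arrays did not overlap. This held for 1 guidance gene higher, beside 0.176% of all genes, and for 0 lower, beside 0.0652%. Epha6 had 6.12, 6.08 and 6.73 on E14.5 arrays and 5.17, 5.29 and 5.02 on E13.5 arrays, a difference of 1.15. E14.5 array 3 was the highest, and without it the difference was 0.94. Robo3 and Efna2 differed by at least 1.5-fold without overlap: Robo3 had 5.26, 5.40 and 4.81 on E14.5 arrays and 5.88, 6.28 and 5.94 on E13.5 arrays, a difference of -0.88. Efna2 had 7.20, 7.22 and 7.38 on E14.5 arrays and 8.52, 8.03 and 7.78 on E13.5 arrays, a difference of -0.84. In all, 8 guidance genes (11.4%) had E14.5 arrays clear of their E13.5 arrays, against 9.68% of all genes. The 2 shares are near each other, so this count of 8 is no result about guidance genes. The other 5 were Plxna2, Epha7 and Slit3, higher at E14.5 by 0.54, 0.38 and 0.36 in mean, and Unc5c and Sema3f, at -0.31 and -0.24. For 64 of the 70 genes the stage means lay within 0.5 of each other, including Dcc (-0.06), L1cam (0.15), Ntn1 (0.05) and Robo1 (-0.20).

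**Figure D5:**
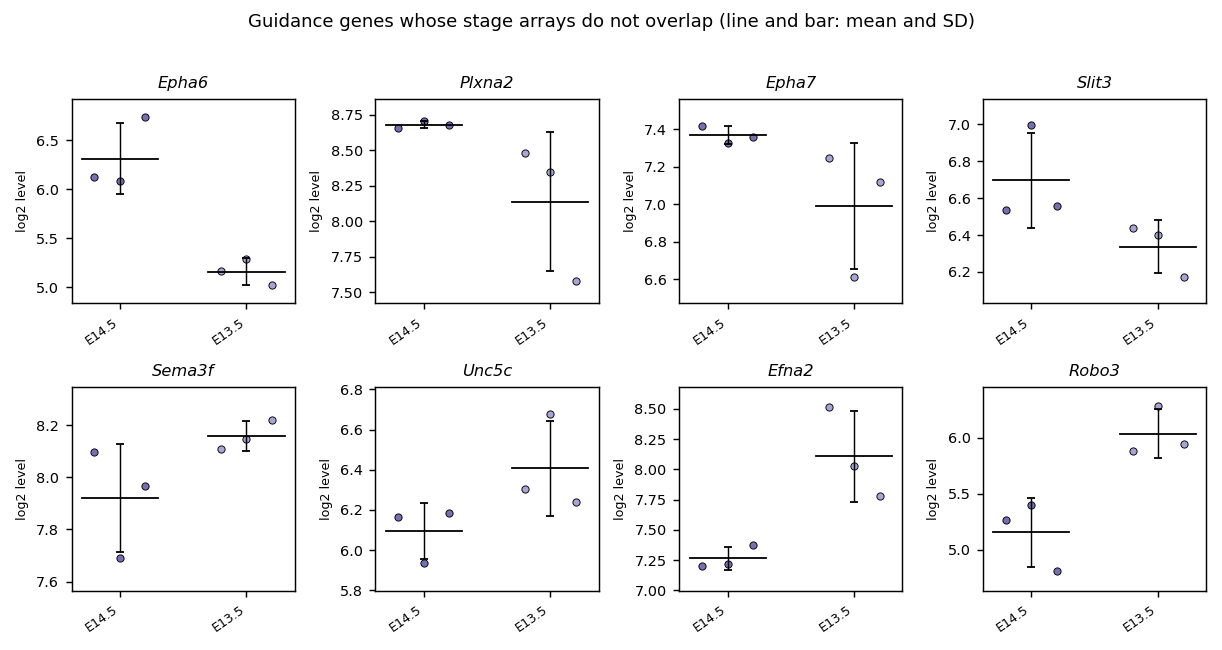
Log2 level of the 8 guidance genes whose E14.5 and E13.5 arrays do not overlap, with points for the technical arrays, lines for means and bars for the SD of 3 arrays. The share of guidance genes without overlap was near that of all genes. Epha6 lies at 6.08 to 6.73 on E14.5 and 5.02 to 5.29 on E13.5 arrays, and Robo3 at 4.81 to 5.40 on E14.5 and 5.88 to 6.28 on E13.5 arrays.

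Partners and transducers of these receptors were counted from lists of 36 and 55 measured genes. Of the partner genes, which are co-receptors, further cues and adhesion proteins of axons, 20 were lower and 9 higher in each iPSC-derived group, with a median difference of -0.64 in treated and -0.68 in control cells; the shares over all genes are those given above. The lowest was Dscam, an adhesion molecule and netrin receptor gene, at -3.93 in treated and -4.12 ± 0.56 (SE, adjusted p = 8.74e-05) in control cells. It was followed by Chl1, a close homologue of L1cam, at -3.17 and -3.47 ± 0.39 (SE, adjusted p = 1.87e-05), and Draxin, a secreted cue that binds netrin-1 and DCC, at -3.25 and -3.22 ± 0.26 (SE, adjusted p = 1.27e-06). The highest was Cxcl12, a chemokine gene of mesenchyme and meninges, at 2.82 in treated and 3.07 ± 0.39 (SE, adjusted p = 5.29e-05) in control cells. Next were its scavenger receptor gene Ackr3 at 2.21 and 2.27 ± 0.21 (SE, adjusted p = 4.04e-06), and Lrig1, a gene of stem cells, at 1.93 and 1.76 ± 0.21 (SE, adjusted p = 2.71e-05). Of the signalling genes, 31 were lower and 7 higher in treated cells, and 30 and 7 in control cells, with median differences of -0.76 and -0.71. The lowest were Crmp1 at -4.44 in treated and -4.33 ± 0.60 (SE, adjusted p = 0.000102) in control cells and Dpysl5 at -3.68 and -3.94 ± 0.41 (SE, adjusted p = 1.01e-05), both of the collapsin response mediator family that acts below neuropilin and plexin receptors, and Ablim3, an actin-binding protein gene, at -3.08 and -3.24 ± 0.54 (SE, adjusted p = 0.000441). The highest were the small GTPase gene Rras at 2.93 and 2.93 ± 0.15 (SE, adjusted p = 4.24e-08), Dock1, which encodes an activator of Rac, at 2.38 and 2.37 ± 0.19 (SE, adjusted p = 1.61e-06), and Rhoa at 1.06 and 0.97 ± 0.12 (SE, adjusted p = 3.95e-05). Many of these genes act in all cells that move or adhere, and Kdr stands both among the partner genes and among the endothelial markers.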

How the data were processed

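RNA of all 16 samples was taken with RNeasy Mini or Micro kits, amplified with Ovation PicoSL WTA V2 and labelled with Encore Biotin, per the labels' protocols. The deposited values are log2 intensities for 35556 probe sets. RMA and Affymetrix Expression Console 1.2 are named, with no roles, in the submitters' processing notes. The labels do not say whether normalization was done in 1 run, and amplification of little RNA can compress differences of dim genes. Of the probe sets, 21789 carried 1 gene symbol and 1621 several, by the platform table, with names updated through RefSeq; per symbol, the probe set with the highest mean over all arrays was kept (19938 genes). Alternate probe sets existed for 6 guidance genes: Epha10, Ephb1, Ntng1, Sema4d, Sema6b and Unc5d.

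Treated and control cells (5 each) were compared with limma 3.58.1 in R 4.3.3 (lmFit, eBayes), with Benjamini-Hochberg adjustment over all genes and a threshold of 0.05. Comparisons with primary neurons used 1 fit of 12 samples in 3 groups, with each stage the mean of its 3 technical arrays, since the labels call them technical. The stages, with 1 sample each, were compared without a test. Fits were tested on simulated data. Alternatives included array centring, quantile normalization, a filter on dim genes, the mean of all probe sets of a gene and each stage alone. Array weights, a replicate block and leaving out each replicate were others. Precision is limited by the number of arrays. Promoters and motif counts came from RefSeq (GRCm38.p6).

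Full values per array are given for Dcc and L1cam, and for genes called between stages. Nrp1 and, on the primary arrays only, Robo3 were added after their values were seen. The 5 genes with the smallest p between treated and control cells have such values or their differences. In each class and direction, full values are given for the 2 genes past the threshold with the largest difference of control from primary cells. The 3 partner and signalling genes per direction are named by the same rule. Members and lists were chosen with earlier results of these data known.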

Additional observations from a re-analysis of the deposited data

Results flagged for a closer look

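Dixon's test set 1 array apart from the rest of its group for 15 of the 140 guidance gene and group pairs of 5 replicates (10.7%), where chance gives about 5% and 7.29% of such pairs over all genes were set apart. Of the pairs set apart over all genes, 45.9% were set apart by array 5. Of those of guidance genes, 11 were arrays numbered 5, on which neuronal markers were highest in both iPSC-derived groups, and 9 of the 11 were the highest of their group. Among treated arrays, array 5 was the highest for Dcc at 7.55, with the nearest other array at 5.78, for Epha6 at 5.08 (nearest 4.30), for Ntn3 at 6.47 (6.15), for Sema5a at 7.63 (6.66) and for Unc5a at 6.01 (5.50). It was the lowest for Sema3c at 6.31 (nearest 7.01) and for Sema4b at 7.36 (7.84). Among control arrays, array 5 was the highest for Epha10 at 6.21 (nearest 5.74), for Ntn5 at 4.93 (4.56), for Plxna4 at 6.92 (6.22) and for Slit1 at 6.50 (5.84). The other control arrays set apart were array 4, lowest for Epha4 at 6.71 (nearest 6.96) and for Nrp2 at 6.93 (7.27), array 1, highest for Sema3b at 6.61 (6.37), and array 2, highest for Sema3d at 6.17 (4.96).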

How the results depend on the processing

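Between treated and control cells, 0 guidance genes passed in either direction under all 19 alternatives run; with the replicate block, 6 had an unadjusted p below 0.05, beside 834 of all genes (4.18%), and the smallest adjusted p of a guidance gene was 0.999 (limma). Against primary neurons, 33 of the 44 calls in control cells and 34 of the 42 in treated cells were kept under all 22 alternatives, and no called gene changed sign. The count of higher genes depended on the primary stage: against E13.5 alone 5 were higher in treated and 5 in control cells, and against E14.5 alone 7 in treated and 9 in control cells, with 30 or 31 lower; these fits have 1 primary sample, assumed to vary like the other groups. With a random replicate block, 11 were higher and 31 lower in treated and 12 and 33 in control cells. Equal replicate numbers correlated at 0.045 for replicate 1 and at 0.435 to 0.798 for the other numbers. Replicates 2, 4 and 5 correlated best with their own number. Because this did not hold for all numbers and the labels name no pairs, the main fit took none. Its spread therefore includes any part that equal numbers share. Leaving out 1 replicate gave 10 to 12 higher and 31 to 32 lower in treated cells and 12 to 14 and 31 to 34 in control cells. Between stages, a limit of 0.58 gave 2 lower genes, and leaving out 1 technical array gave 0 to 1 higher and 0 to 1 lower; Epha6 was at 0.942 without E14.5 replicate 3. Guidance genes near background limit what can be seen. By their mean over all 16 arrays, 67 of 70 passed a filter that left out the dimmest 25% of genes. That mean includes the primary arrays, so passing does not show a level above background in iPSC-derived cells. Sema4f passed, yet averaged 4.88 in treated and 4.92 in control cells, under the cutoff of 5.02, against 5.97 in primary neurons.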
